A study of Mus musculus with 53 samples.

Results

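The 9 Krueppel-like factor genes Klf2, Klf3, Klf4, Klf6, Klf7, Klf9, Klf10, Klf11 and Klf13 were followed by RNA-seq in mouse bone marrow-derived macrophages (BMDMs) given the cytokine IL-4. They were taken by symbol from the expression tables and are 9 of the 23847 loci listed there. Marrow cells from WT (C57BL/6) and Stat6-/- mice, aged 8 to 12 weeks, were grown into macrophages over 6 days with supernatant of L929 cells, a source of the growth factor M-CSF. IL-4 at 20 ng/ml was then given for 1, 3, 6 or 24 h, and untreated controls were taken at 0 h and at each of these times. The 53 samples analysed here form 18 groups: WT groups hold 4 samples, except 3 at 24 h with IL-4, where replicate 1 was not analysed here, and every Stat6-/- group holds 2. Stat6-/- is a full-body knockout on the C57BL/6 background, so these macrophages also developed without STAT6. The labels do not say which samples came from separate animals. The study describes the WT time course as 4 individual animals and gives n = 2 for Stat6-/-. The fit used below treats all samples as independent, so p-values measure the spread between these samples.

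Krueppel-like factors are transcription factors whose C-terminal zinc fingers bind GC-rich and CACCC sequences, so that members can compete for the same promoters. Klf2, Klf4, Klf6 and Klf7 are best known as activators, Klf3 represses through the corepressor CtBP, and Klf9, Klf10, Klf11 and Klf13 can recruit the SIN3A corepressor. IL-4 activates the transcription factor STAT6, which drives the alternative, tissue-repair state of macrophages, and Klf4 is known to act with STAT6 in that state. Klf2 is known for keeping myeloid cells quiescent.

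Levels are given in FPKM (fragments scaled by transcript length and by library size), which can be compared between genes because they are per length. Changes are differences of mean log2(FPKM + 1) from limma, a linear model fitted to all 11146 loci that reached 1 FPKM in at least 1 sample; all 9 members were among them. A locus passed the test at a Benjamini-Hochberg adjusted p under 0.05, and was called when its change was also at least 1 on the log2 scale, a 2-fold difference of FPKM + 1. The added 1 makes changes of genes at a few FPKM look smaller than they are. Between 10017 and 10380 loci reached 1 FPKM in each sample. The targeted gene Stat6 lay between 58.7 and 90.6 FPKM in the 35 WT samples and between 14.3 and 24.0 FPKM in the 18 Stat6-/- samples, without overlap; how much of the deleted part these values count is not given in the sources used here. Retnla, a marker gene of alternative activation, was called higher with IL-4 in WT at 24 h, by 11.99 on the log2 scale. Of the 8 macrophage markers listed in the tables all reached 1 FPKM, although Lyz2 was listed at 0 in 7 samples, whereas T cell, B cell, erythroid, fibroblast and dendritic cell markers each summed to under 1 FPKM in every sample. Mast cell or basophil, endothelial and eosinophil markers summed to at most 2.50, 3.85 and 8.73 FPKM. Neutrophil and precursor markers, led by S100a9, summed to between 191 and 536 FPKM in WT samples and between 496 and 934 FPKM in Stat6-/- samples. In RNA from a whole culture, fewer cells of a type and less RNA per cell cannot be told apart.

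In WT controls at 0 h, Klf6 was by far the most abundant member, at 112 ± 9.62 FPKM (SD, n = 4), and made up 63.4% of the summed FPKM of the 9 genes. Klf6 is an activator known as a wound- and stress-induced factor. Klf13 followed at 20.6 ± 1.51 FPKM, Klf10 at 14.3 ± 1.06, Klf2 at 11.4 ± 1.05 and Klf3 at 9.36 ± 0.759 (SD, n = 4 each). The lowest were Klf11 at 3.76 ± 0.459, Klf4 at 3.195 ± 0.686, Klf9 at 1.35 ± 0.226 and Klf7 at 1.16 ± 0.317 FPKM (SD, n = 4 each). The samples of Klf11 and Klf4 overlapped, as did those of Klf9 and Klf7, and the other neighbours in this order did not overlap.

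The order changed with IL-4 in WT macrophages. At 24 h with IL-4, Klf6 still led at 74.1 FPKM, but Klf10 came next at 23.4 FPKM, above Klf13 at 16.1 FPKM. Next came Klf9 at 14.2 FPKM and Klf4 at 12.3 FPKM, whereas in the 24 h controls they stood above only Klf7, at 1.44 and 1.51 FPKM. Samples of Klf9 overlapped those of Klf4, Klf4 those of Klf2, and Klf2 those of Klf3. The summed FPKM of the 9 genes was 161 ± 11.9 (SD, n = 3) with IL-4 and 161 ± 7.61 (SD, n = 4) in the controls at 24 h, while the Klf6 share was 46.1% with IL-4 and 61.4% without. At 3 h the sum was 131 ± 13.5 FPKM with IL-4 against 177 ± 9.81 FPKM in controls (SD, n = 4 each). In Stat6-/- macrophages at 24 h with IL-4, Klf4 at 2.52 FPKM and Klf9 at 1.58 FPKM stood above only Klf7, as in the Stat6-/- controls of that time.

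**Figure D1:**
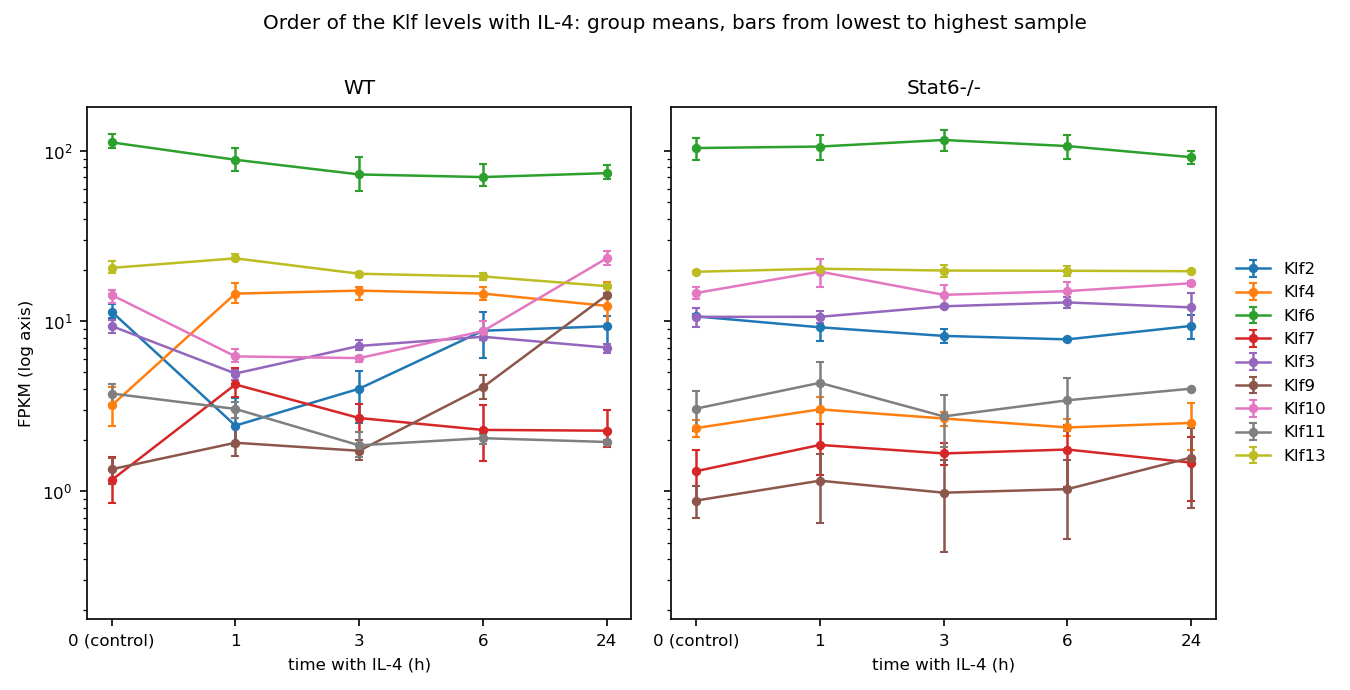
Mean FPKM of each member on a log axis, in 0 h controls and after 1, 3, 6 and 24 h with IL-4, in WT (left) and Stat6-/- (right) macrophages; bars run from the lowest to the highest sample. In WT the Klf4 line rises by 1 h and the Klf9 line by 24 h, to 12.3 and 14.2 FPKM at 24 h, while in Stat6-/- they end at 2.52 and 1.58 FPKM.

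In WT macrophages 4 members were called at 1 h of IL-4, 3 at 3 h, 2 at 6 h and 2 at 24 h. The share called among all tested loci was 1.49%, 3.88%, 5.54% and 8.5% at these times. Klf4, Klf7 and Klf9 were called higher, at all 4 times for Klf4, at 1 h for Klf7 and at 6 and 24 h for Klf9, and Klf2 and Klf10 were called lower at 1 and 3 h. At 1 or more times 5 of the 9 members were called, against 12.8% of tested loci. The members were chosen with earlier results of these data known, so these shares describe the members and do not test the family. Without the 2-fold limit, 7, 7, 7 and 8 members passed at the 4 times, against 9.39%, 28.9%, 41.2% and 55% of tested loci. The median change of the 9 members was -0.30, -0.51, -0.21 and 0.07 on the log2 scale, beside -0.02, 0.01, -0.00022 and -0.07 over all tested loci.

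**Figure D2:**
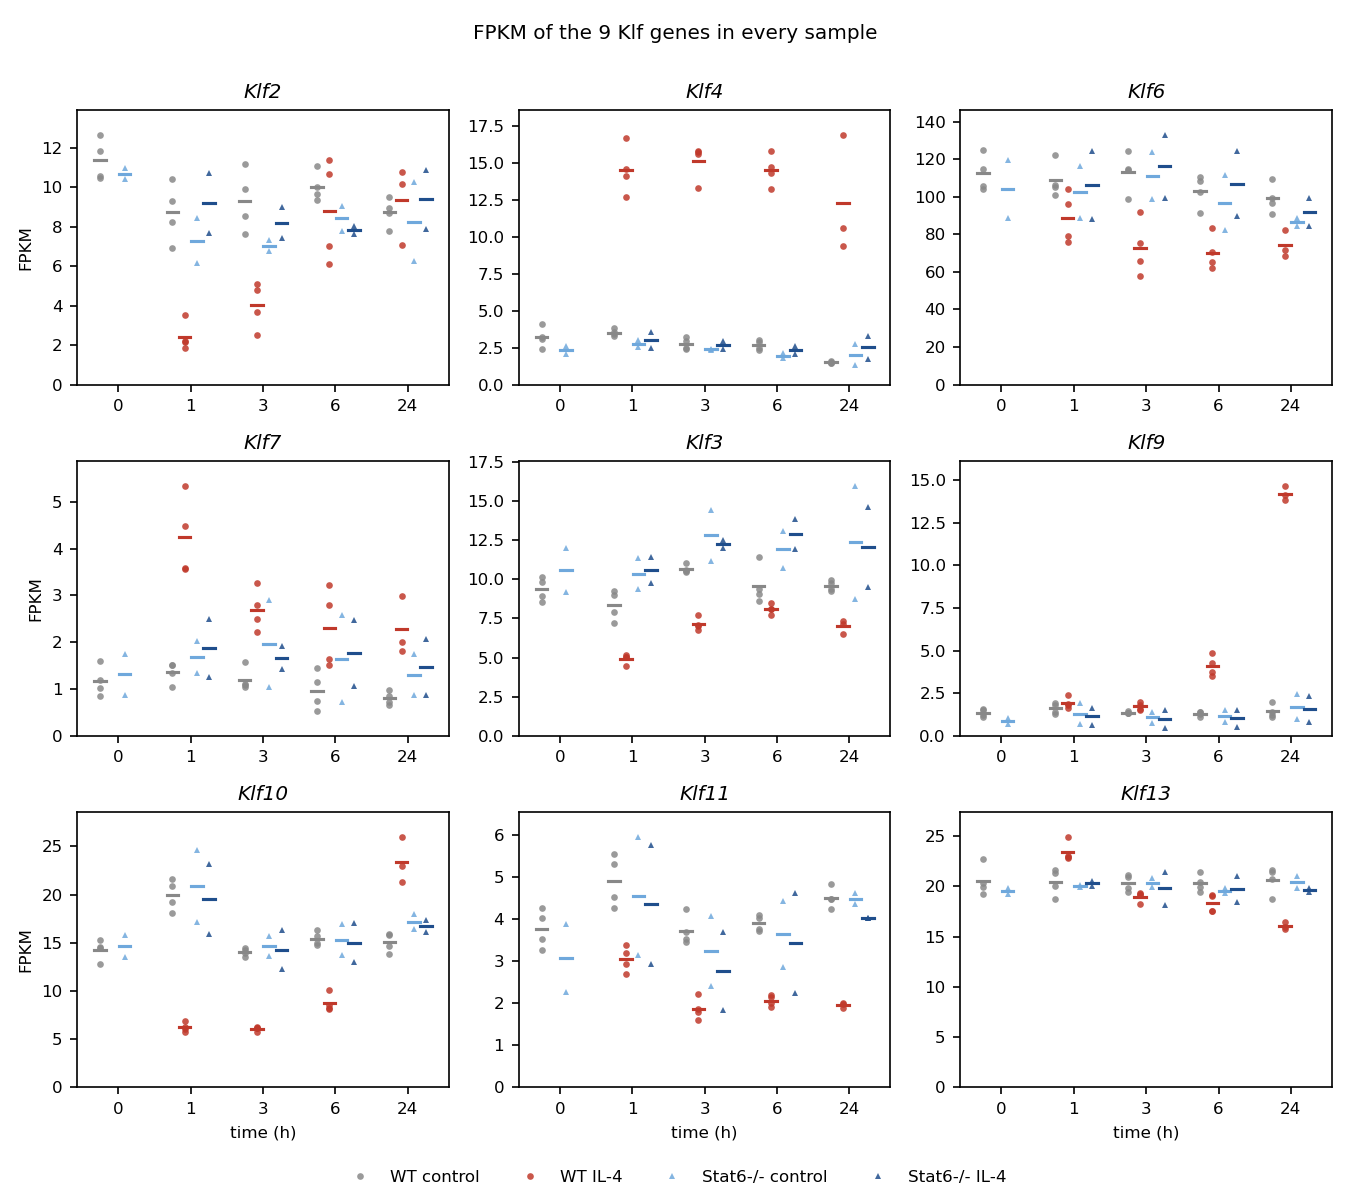
FPKM of each member in every sample, by time, on linear axes from 0; circles are WT and triangles Stat6-/-, colours mark controls and IL-4, and short bars are group means. The WT IL-4 samples of Klf4 lie between 9.40 and 16.9 FPKM, above every other sample of that gene, and those of Klf9 leave the controls at 6 and 24 h.

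Because the 5 called members responded at different times, the promoters of the 4 with an entry in the RefSeq promoter table are shown here (GRCm38.p6, 250 bases before to 50 bases after the start site, 5′ to 3′ on the gene's strand). They lie at chr4:55532426-55532725 on the minus strand for Klf4, chr19:23140976-23141275 on the plus strand for Klf9, chr1:64121340-64121639 on the minus strand for Klf7 and chr8:72318812-72319111 on the plus strand for Klf2. Capitals mark matches to TTC and GAA set 3 bases apart, the general STAT sequence, or to CCACCC, on either strand (GGGTGG on the other). CCACCC is a longer form of the CACCC sequence of Krueppel-like factors. CACCC without the leading C was not searched for and is left unmarked, as in the Klf9 window.
Klf4: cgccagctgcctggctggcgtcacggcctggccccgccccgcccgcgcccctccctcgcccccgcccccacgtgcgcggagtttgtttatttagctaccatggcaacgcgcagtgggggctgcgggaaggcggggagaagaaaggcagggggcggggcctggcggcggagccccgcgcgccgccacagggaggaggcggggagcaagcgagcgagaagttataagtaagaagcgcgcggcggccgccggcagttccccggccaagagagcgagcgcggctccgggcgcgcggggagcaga
Klf9: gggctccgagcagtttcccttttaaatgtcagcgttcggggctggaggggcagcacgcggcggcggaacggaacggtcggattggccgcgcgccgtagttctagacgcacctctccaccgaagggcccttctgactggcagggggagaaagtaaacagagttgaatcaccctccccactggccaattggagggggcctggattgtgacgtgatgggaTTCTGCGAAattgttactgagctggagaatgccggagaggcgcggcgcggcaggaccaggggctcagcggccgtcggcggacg
Klf7: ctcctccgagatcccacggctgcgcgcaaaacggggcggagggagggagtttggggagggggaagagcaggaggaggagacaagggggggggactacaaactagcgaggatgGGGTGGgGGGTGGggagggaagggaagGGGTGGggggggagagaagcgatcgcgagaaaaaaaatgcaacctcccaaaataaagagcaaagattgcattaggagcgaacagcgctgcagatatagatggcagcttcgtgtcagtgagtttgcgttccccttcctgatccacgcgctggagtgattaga
Klf2: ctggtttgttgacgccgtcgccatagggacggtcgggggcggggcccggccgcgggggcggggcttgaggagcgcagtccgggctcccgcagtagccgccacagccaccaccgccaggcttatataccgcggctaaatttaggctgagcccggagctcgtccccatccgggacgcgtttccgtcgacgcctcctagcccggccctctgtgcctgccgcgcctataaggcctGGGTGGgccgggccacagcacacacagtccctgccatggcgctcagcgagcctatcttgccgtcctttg

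Of the 9 members 8 had an entry, and Klf10 did not. TTC and GAA set 4 bases apart, the spacing that STAT6 prefers, were in 0 of the 8 windows and in 6.95% of all 32851 promoters of this length (mouse chromosome 18 left out). The spacing of 3 bases was in the Klf9 window, 33 bases before the start site, and in 8.3% of all promoters. CCACCC was in the windows of Klf2, Klf3, Klf7 and Klf13, with 3 matches each in Klf3 and Klf7, and in 31.5% of all promoters. All 8 windows were GC-rich, at 58.3 to 77.7% G and C with 16 to 42 CpG dinucleotides, where the medians of all promoters were 52.7% and 7. These are matches of letters in short windows, and sites elsewhere at these genes were not searched.

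Klf4, an activator that also takes part in monocyte differentiation, was higher with IL-4 at all 4 times. At 1 h the WT IL-4 samples held 14.6, 12.7, 16.7 and 14.1 FPKM and the controls 3.43, 3.53, 3.82 and 3.26 FPKM. At 24 h the IL-4 samples held 16.9, 10.6 and 9.40 FPKM and the controls 1.46, 1.47, 1.62 and 1.501 FPKM. Every IL-4 sample lay above every control at both times, and at 24 h replicate 2 stood above the other two IL-4 samples. At 3 h the means were 15.1 and 2.77 FPKM, and at 6 h 14.5 and 2.68 FPKM. The ratio of means was thus 4.14, 5.45, 5.41 and 8.13 at 1, 3, 6 and 24 h. The log2 changes were 1.78 (SE 0.139, adjusted p = 4.72e-13), 2.10 (SE 0.139, adjusted p = 1.57e-15), 2.08 (SE 0.139, adjusted p = 1.6e-15) and 2.36 (SE 0.150, adjusted p = 6.28e-16). The larger ratio at 24 h went with a lower control level: controls passed the test as lower at 24 h than at 0 h, by -0.73 on the log2 scale (SE 0.139, adjusted p = 0.000282), while the mean with IL-4 was not higher than at 6 h.

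Klf4 is spread over 5 exons at chr4:55527137-55532475 (mm10). The primers that the study lists for its RT-qPCR are shown because they mark which piece of the transcript that assay reads.
Klf4 forward: cgggaagggagaagacact
Klf4 reverse: gagttcctcacgccaacg
They frame 62 bases, from base 678 to base 739 of the principal GENCODE transcript, inside the coding sequence, which runs from base 596 to base 2047. FPKM counts fragments over the whole transcript.

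Klf7, an activator known from neurons, fat cells and lymphocytes, rose early from a low level. At 1 h the WT IL-4 samples held 4.49, 5.33, 3.57 and 3.59 FPKM, and the controls 1.52, 1.52, 1.05 and 1.35 FPKM. The groups did not overlap, and the mean was 3.13 times that of controls. The log2 change of 1.14 was called (SE 0.217, adjusted p = 0.000166). At 3, 6 and 24 h the means with IL-4 were 2.25, 2.38 and 2.83 times those of controls, and the changes of 0.75, 0.73 and 0.85 passed the test (adjusted p = 0.00698, 0.00597 and 0.0026) without reaching 2-fold on the FPKM + 1 scale. With 0.1 added in place of 1 they were called as well, at 1.11, 1.19 and 1.38.

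Klf9, a repressor known for its induction by glucocorticoid and thyroid hormone, changed late. At 1 and 3 h its changes of 0.17 (95% interval -0.21 to 0.55) and 0.20 (-0.18 to 0.59) did not pass. At 6 h the WT IL-4 samples held 3.75, 3.497, 4.27 and 4.86 FPKM and the controls 1.39, 1.097, 1.40 and 1.26 FPKM. At 24 h the IL-4 samples held 14.2, 14.7 and 13.8 FPKM and the controls 1.13, 1.23, 1.41 and 2.01 FPKM. At both times the groups lay wide apart, and at 24 h the 3 IL-4 samples were close to each other. The ratio of means was 3.18 at 6 h and 9.86 at 24 h. The log2 changes were 1.15 (SE 0.189, adjusted p = 4.11e-06) and 2.65 (SE 0.204, adjusted p = 1.37e-13). From 6 to 24 h the response itself grew by 1.502 (SE 0.279, adjusted p = 6.03e-05), a change called in 6.06% of tested loci.

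Klf2 fell at once and was back near its control level by 6 h. At 1 h the WT IL-4 samples held 2.23, 2.15, 3.51 and 1.84 FPKM, and the controls 9.30, 6.92, 10.4 and 8.24 FPKM. At 3 h the IL-4 samples held 3.66, 2.51, 5.10 and 4.77 FPKM, and the controls 8.54, 7.64, 11.2 and 9.90 FPKM. The groups did not overlap at either time, and in both the lowest control was replicate 2. The mean was 27.9% of the control mean at 1 h and 43.0% at 3 h. The changes of -1.51 (SE 0.172, adjusted p = 9.37e-09) and -1.06 (SE 0.172, adjusted p = 4.44e-06) were called; without WT replicate 2 the change at 3 h was -0.98 (adjusted p = 6.7e-05) and under 2-fold. At 6 h the IL-4 samples spread from 6.10 to 11.4 FPKM and the controls from 9.34 to 11.1 FPKM, and at 24 h from 7.09 to 10.8 FPKM and from 7.77 to 9.48 FPKM. The groups overlapped at both times, and the changes of -0.21 (95% interval -0.56 to 0.14) and 0.07 (-0.30 to 0.45) did not pass.

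Klf10, a repressor also called TIEG1 for its early induction by TGF-beta, fell first and was higher at the end. At 1 h the WT IL-4 samples held 6.05, 5.73, 6.21 and 6.84 FPKM, and the controls 19.2, 18.1, 20.9 and 21.6 FPKM. At 3 h the IL-4 samples held 6.17, 6.24, 6.11 and 5.75 FPKM, and the controls 14.3, 13.5, 14.0 and 14.5 FPKM. All IL-4 samples lay below all controls. The changes of -1.54 (SE 0.1002, adjusted p = 2.36e-15) and -1.09 (SE 0.1002, adjusted p = 1.49e-11) were called. At 6 h the mean was 56.7% of that of controls, a change of -0.76 that passed (adjusted p = 6.93e-08). At 24 h the IL-4 samples held 25.9, 23.0 and 21.3 FPKM and the controls 15.9, 15.8, 14.6 and 13.8 FPKM. Here all IL-4 samples lay above all controls, and the change of 0.60 passed (SE 0.108, adjusted p = 1.28e-05). The control level bears on the 1 h value: controls passed as higher at 1 h than at 0 h, by 0.46 (SE 0.1002, adjusted p = 0.00805), so that the 6.21 FPKM mean with IL-4 compares with 20.0 FPKM at 1 h and 14.3 FPKM at 0 h.

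The change of the WT response between times was tested in the same model. From 1 to 24 h, 3 members were called, against 8.98% of tested loci: Klf9 by 2.48 (adjusted p = 4e-09), Klf10 by 2.14 (adjusted p = 1.58e-14) and Klf2 by 1.58 (adjusted p = 3.8e-06). Klf10 was also called from 6 to 24 h, by 1.36 (SE 0.148, adjusted p = 2.46e-09). In all 5 members passed from 1 to 24 h and 2 from 6 to 24 h, against 44.5% and 27.8% of tested loci. From 3 to 6 h, Klf2 at 0.85 (adjusted p = 0.0394) and Klf9 at 0.95 (adjusted p = 0.0369) passed and 0 members were called (3.31% and 0.449% of tested loci). From 1 to 3 h, Klf10 at 0.45 (adjusted p = 0.0317) and Klf13 at -0.28 (adjusted p = 0.00899) passed, again with 0 called (11.1% and 1.61% of tested loci). At an unadjusted p under 0.05 there were 3 members from 3 to 6 h and 2 from 1 to 3 h.

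Klf3, Klf6 and Klf11 were lower in WT macrophages, by less than 2-fold on the FPKM + 1 scale. Klf3, the CtBP-dependent repressor, was at 59.0%, 67.2%, 84.4% and 73.1% of the control mean at 1, 3, 6 and 24 h. Its changes passed at 1 h (-0.65, adjusted p = 5.17e-05), 3 h (-0.51, adjusted p = 0.000506) and 24 h (-0.40, adjusted p = 0.00605) but not at 6 h (-0.21, adjusted p = 0.137). Klf6 was at 81.7%, 64.3%, 68.1% and 74.8% of the control mean. Its change of -0.30 at 1 h did not pass (adjusted p = 0.214), and those of -0.65, -0.55 and -0.42 at 3, 6 and 24 h did (adjusted p = 0.000302, 0.00123 and 0.0181). In FPKM the Klf6 difference was large: at 3 h the IL-4 samples held 75.4, 91.9, 66.0 and 58.0 FPKM, and the controls 115, 125, 115 and 99.0 FPKM, with no overlap and with replicate 2 highest and replicate 4 lowest in both groups.

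Klf11, or TIEG2, a TGF-beta-inducible repressor related to Klf10, was lower at all 4 times, at 62.2%, 50.03%, 52.8% and 43.3% of the control mean. At 24 h the IL-4 samples held 1.995, 1.89 and 1.97 FPKM and the controls 4.48, 4.83, 4.48 and 4.23 FPKM, with no overlap. The changes of -0.54, -0.72, -0.68 and -0.90 passed (adjusted p = 0.0225, 0.000463, 0.000673 and 3.92e-05). With 0.1 added in place of 1 the 24 h change was -1.17 and was called. Klf13, known from T cells, moved least: its means were 115%, 93.3%, 90.0% and 77.8% of controls. It passed as higher at 1 h (0.19, adjusted p = 0.0155) and as lower at 6 h (-0.14, adjusted p = 0.0276) and 24 h (-0.34, adjusted p = 4.9e-06), and at 24 h the IL-4 samples held 15.8, 15.97 and 16.5 FPKM against 20.8, 18.8, 21.7 and 21.4 FPKM in controls.

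**Figure D3:**
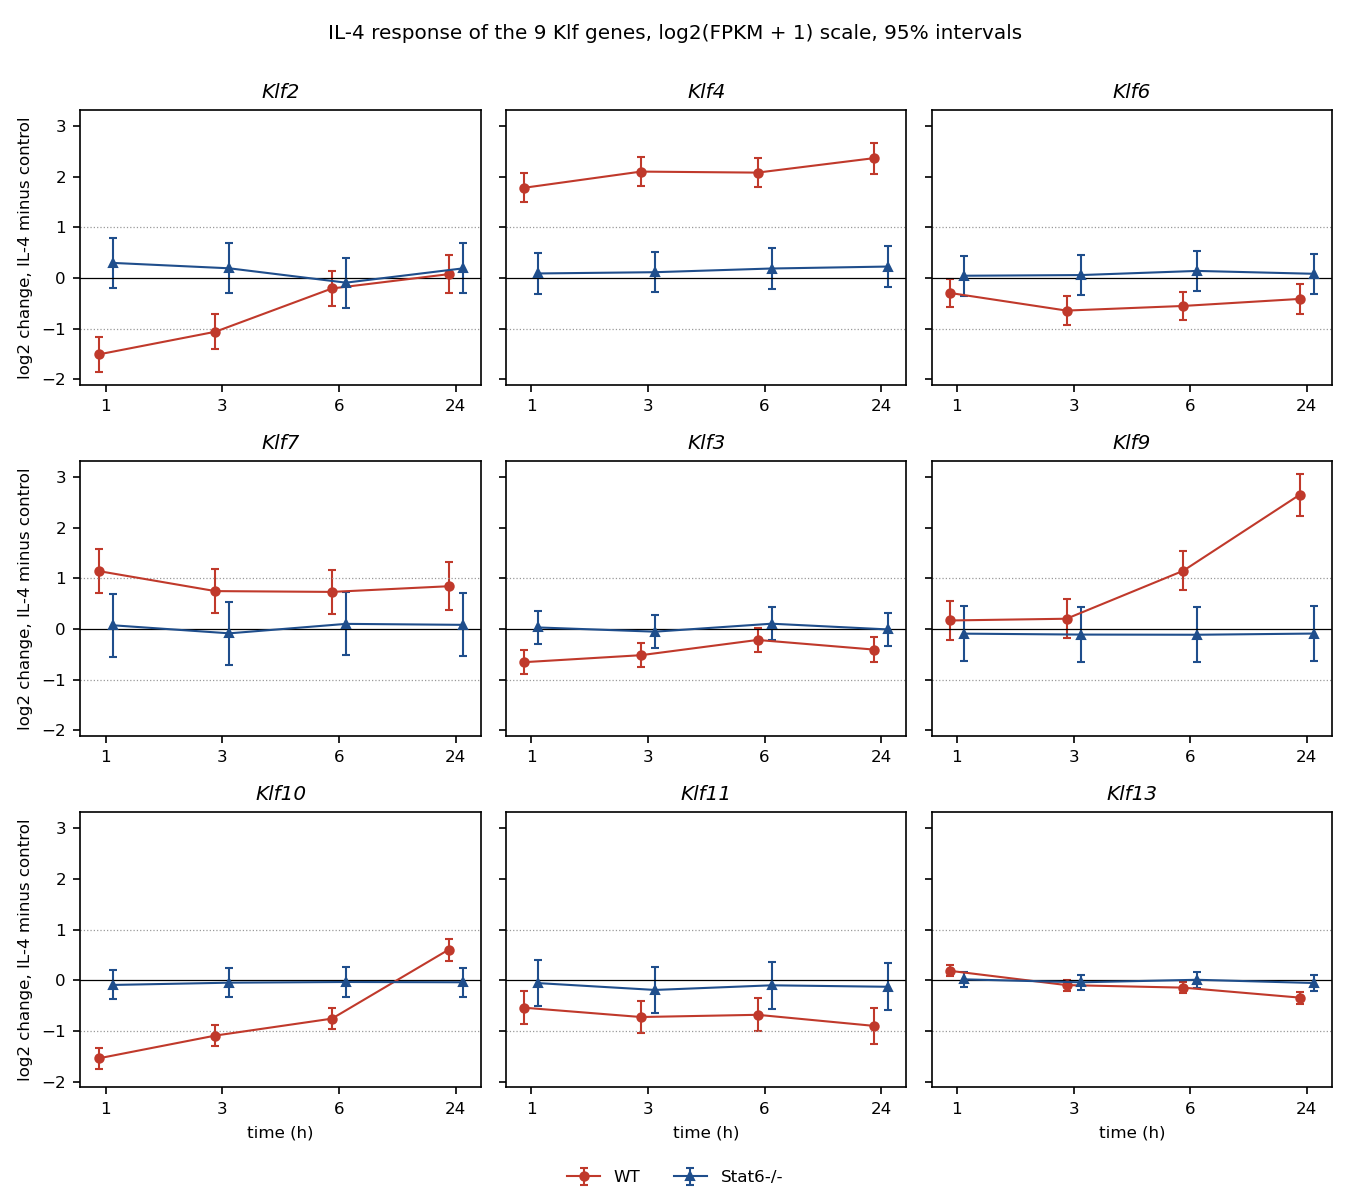
Log2 change of each member, IL-4 minus control, at 1, 3, 6 and 24 h in WT (circles) and Stat6-/- (triangles) macrophages; error bars are 95% intervals from limma and dotted lines mark a 2-fold change on the FPKM + 1 scale. The WT lines of Klf4 stay between 1.78 and 2.36, those of Klf2 and Klf10 start at -1.51 and -1.54, and the Stat6-/- intervals of all 9 genes include 0.

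In Stat6-/- macrophages 0 of the 9 members were called with IL-4 at any time, and 0 passed. The same held at an unadjusted p under 0.05 and for all tested loci, of which 0% were called. With 2 samples a group the intervals are wide. At 24 h the change was 0.22 for Klf4 (95% interval -0.17 to 0.62) and -0.09 for Klf9 (-0.63 to 0.45). At 1 h it was 0.30 for Klf2 (-0.20 to 0.79), -0.09 for Klf10 (-0.38 to 0.20) and 0.08 for Klf7 (-0.55 to 0.70). These intervals leave out the WT changes of the same genes at the same times. The Klf4 samples with IL-4 at 24 h held 1.75 and 3.30 FPKM and the controls 1.30 and 2.77 FPKM, and those of Klf9 held 2.36 and 0.803 FPKM against 2.45 and 0.978 FPKM. For both genes the replicates of each group lay farther apart than the means with and without IL-4. That spread followed the replicate number: within each number, Klf4 was higher with IL-4 than without, and Klf9 was lower.

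The difference between the genotypes was tested as an interaction, the WT change minus the Stat6-/- change. At 1, 3, 6 and 24 h, 3, 3, 2 and 2 members were called, against 1.25%, 3.48%, 4.41% and 6.85% of tested loci. Klf4 was called at all 4 times, at 1.69 (SE 0.241, adjusted p = 3.57e-06), 1.99 (SE 0.241, adjusted p = 4.83e-08), 1.89 (SE 0.241, adjusted p = 1.11e-07) and 2.14 (SE 0.247, adjusted p = 2.06e-08). Klf9 was called at 6 h, at 1.26 (SE 0.328, adjusted p = 0.00501), and at 24 h, at 2.74 (SE 0.337, adjusted p = 7.14e-08). Klf2 was called at 1 h, at -1.81 (SE 0.299, adjusted p = 5.25e-05), and at 3 h, at -1.25 (SE 0.299, adjusted p = 0.00286). Klf10 was called at 1 h, at -1.45 (SE 0.174, adjusted p = 1.1e-07), and at 3 h, at -1.04 (SE 0.174, adjusted p = 2.16e-05). At 3 h, Klf2 did not pass without Stat6-/- replicate 2 (-1.08, adjusted p = 0.0675, the highest over its alternatives, the lowest being 3.54e-05), and Klf10 fell short of 2-fold without Stat6-/- replicate 1 (-0.95, adjusted p = 2.51e-05).

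Of the smaller changes, the interaction passed for Klf3 at 1 h (-0.69, adjusted p = 0.0446), Klf6 at 6 h (-0.69, adjusted p = 0.0414), Klf10 at 6 h (-0.72, adjusted p = 0.00237) and 24 h (0.64, adjusted p = 0.0062), and Klf11 and Klf13 at 24 h (-0.77 and -0.29, adjusted p = 0.0409 and 0.0207). With the called ones, 4, 3, 4 and 5 members passed at 1, 3, 6 and 24 h, against 3.36%, 11.2%, 16.5% and 27% of tested loci. For Klf7 it did not pass at any time in this fit. At 1 h the Klf7 difference was 1.07 (95% interval 0.31 to 1.83, adjusted p = 0.147). With replicate number as a block, the Klf7 interaction at 1 h was called, as given at the end. The Stat6-/- samples of Klf7 ranged from 0.729 to 2.90 FPKM, with replicate 2 above replicate 1 in every group.

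Without IL-4 the members differed little with time in culture in the main fit, which the counts below use. Under at least 1 alternative, Klf11 at 1 h and Klf2 and Klf6 at 24 h passed in WT controls against 0 h. In Stat6-/- controls, Klf10 at 1 h and Klf9 and Klf11 at 24 h did. In WT, 0 members were called at 1, 3, 6 or 24 h against 0 h (0%, 0.00897%, 0.0179% and 1.13% of tested loci), and the 2 that passed were Klf10 at 1 h and Klf4 at 24 h, given above (2%, 0.144%, 0.135% and 17.2% of tested loci passed at the 4 times). At an unadjusted p under 0.05 there were 2, 0, 0 and 1 members. The WT controls of Klf4 held 2.41, 3.09, 4.08 and 3.21 FPKM at 0 h and 1.46, 1.47, 1.62 and 1.501 FPKM at 24 h, with no overlap. In Stat6-/- controls, 0 members were called or passed at the 4 times, where 0%, 0%, 0% and 0.161% of tested loci were called and 0.0807%, 0%, 0% and 0.718% passed. At an unadjusted p under 0.05 there were 2, 1, 0 and 0 members. There Klf10 was 0.47 higher at 1 h than at 0 h (95% interval 0.18 to 0.75), with an unadjusted p of 0.00214 and an adjusted p of 0.291 from limma, and the samples held 24.7 and 17.1 FPKM at 1 h against 15.8 and 13.5 FPKM at 0 h.

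Control levels did not pass a difference between genotypes for any member in the reported fits, which the counts below use. Under at least 1 alternative, Klf3, Klf9 and Klf11 passed at 0 h, and Klf3, Klf7, Klf9 and Klf11 over the mean of controls. The 0 h change ran over the alternatives from -0.54 to 0.04 for Klf11, -0.02 to 0.33 for Klf3 and -0.57 to -0.18 for Klf9. At 0 h, 0 members were called or passed, 0 had an unadjusted p under 0.05, while 0.35% of tested loci were called and 2.18% passed. The changes ran from -0.32 for Klf9 (95% interval -0.79 to 0.15) to 0.15 for Klf3 (-0.13 to 0.44), Stat6-/- minus WT. Over the mean of the 5 control times, 0 members passed, while 0.00897% of tested loci were called and 0.0179% passed, with changes from -0.20 for Klf2 to 0.26 for Klf7. The neutrophil and precursor marker sum that differed between the genotypes stood beside these values, and its part in them was not tested. The 2 Stat6-/- replicates differed from each other: Klf9 and Klf11 were higher in replicate 1 at 0, 1, 3 and 6 h, and Klf6 in replicate 2 at all times.

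The members were also compared over the 18 group means, as a description: all points share their libraries, and 4 of the 18 are WT IL-4 groups. Klf4 and Klf7 were most alike (Pearson's r = 0.814), followed by Klf2 and Klf10 (0.73) and Klf4 and Klf9 (0.645). Klf3 and Klf4 (-0.836), Klf2 and Klf7 (-0.82) and Klf4 and Klf6 (-0.769) were the most opposite. Klf9 had r = -0.01 with Klf2 and 0.08 with Klf10.

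**Figure D4:**
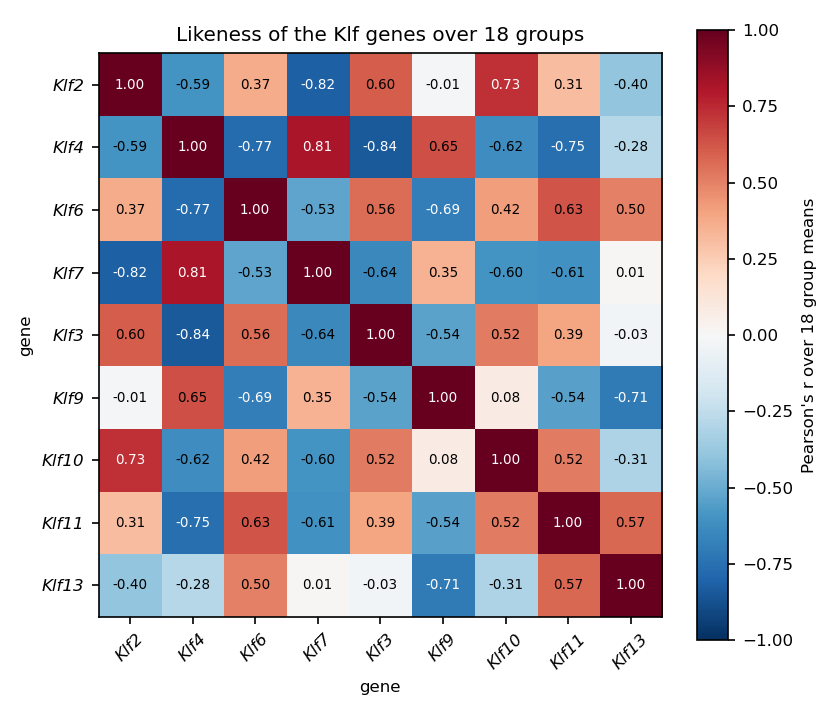
Pearson's r between members over 18 group means of log2(FPKM + 1); red is alike and blue opposite. Klf4 and Klf7 (0.814) and Klf2 and Klf10 (0.73) form the strongest red pairs, and Klf3 with Klf4 (-0.836) the strongest blue one.

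Among the 2674 loci whose group means spanned at least 1 on the log2 scale, the 3 most like Klf4 were Prr15 (0.97), Clec7a, the beta-glucan receptor dectin-1 (0.968), and Irf4, a transcription factor of alternative activation (0.967). Those most like Klf9 were Ncs1, a calcium sensor (0.977), Ear11, a secreted ribonuclease (0.972), and Mrgpre, a G protein-coupled receptor (0.971). For Klf2 they were Pdgfb, a growth factor (0.919), Nfe2l2, the antioxidant regulator NRF2 (0.886), and Trim8 (0.882). For Klf10 they were Gdf15, a stress-induced cytokine (0.929), Hs6st1 (0.909) and Cln8 (0.907), and for Klf7 Rhoh (0.928), the chemokine Ccl7 (0.908) and Csrnp1 (0.904).

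Of the 8 other Klf genes in the tables, only Klf8 and Klf16 reached 1 FPKM in a sample, and 0 were called in WT at any time. Klf16 passed as lower at 1 h (-0.26, adjusted p = 0.0462) and 3 h (-0.22, adjusted p = 0.0484) and as higher at 24 h (0.28, adjusted p = 0.00849), and Klf8 passed as lower at 6 h (-0.24, adjusted p = 0.0325). Of the 9 related Sp genes, 4 were tested, 0 were called, and at 24 h Sp2, Sp3 and Sp4 passed as lower, at -0.35, -0.40 and -0.30, beside 55% of all tested loci that passed at that time in either direction. Of 10 cofactors that KLF proteins bind, 0 were called in WT, and at 24 h 5 passed, where 55% of all tested loci did: Sin3a (-0.44), Ep300 (-0.44), Kat2b (-0.52) and Hdac1 (-0.17) lower and Hdac2 (0.34) higher. Ctbp2, a partner of Klf3, passed as lower at 3 h (-0.30) and 6 h (-0.34).

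In the MEK5-ERK5-MEF2 pathway, through which Klf2 and Klf4 are known to be induced, 1 of 5 genes was called in WT at 1 or more times. Over all tested loci that share was 12.8%, and 1.49%, 3.88%, 5.54% and 8.5% were called at 1, 3, 6 and 24 h. Mef2c was lower at 3 h (6.90 ± 0.440 against 15.2 ± 0.592 FPKM, SD, n = 4 each) and at 6 h (5.46 ± 0.538 against 15.6 ± 0.893 FPKM), with changes of -1.04 (adjusted p = 4.97e-08) and -1.36 (adjusted p = 6.24e-11). Mapk7, which encodes ERK5, passed as lower at all 4 times, by -0.56, -0.61, -0.56 and -0.56. At these times 9.39%, 28.9%, 41.2% and 55% of tested loci passed in either direction. Of 4 ubiquitin ligases that act on KLF proteins, Wwp1 was called lower at 24 h, at 15.5 ± 2.27 FPKM (n = 3) against 72.1 ± 6.44 FPKM (n = 4), a change of -2.16 (adjusted p = 2.37e-11). Among 4 genes reported as KLF targets, Thbd, the thrombomodulin gene known as a target of Klf2 and Klf4, was called lower at 1, 3 and 6 h (-1.09, -1.21 and -1.04). Zc3h12a, which encodes the RNase regnase-1, was called higher at 1 h (1.55, adjusted p = 1.01e-16), and Arg1 was called higher at all 4 times (1.65, 4.07, 5.98 and 5.93). Smad7 was not called at any time.

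FPKM cannot separate a gene from transcripts that overlap it when strand is not recorded, and the named library kit does not mark strand. In GENCODE M21, Klf3, Klf7 and Klf13 each have at least 1 gene on the opposite strand within their bounds, and Klf2, Klf4, Klf6, Klf9, Klf10 and Klf11 have none. Stretches of 50 bases shared with another gene made up at most 0.27% of a member's principal transcript, for Klf4.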

How the data were processed

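Poly-A RNA libraries were made with an unstranded TruSeq kit, and the authors deposited 1 table of FPKM per sample; the submitters' processing notes name TopHat2 2.0.7 and Cufflinks 2.0.2 on mm10. The annotation is not given in the sources used here, and the tables give no counts, so no counting error could be given; sums of FPKM were 385889 to 464915 per sample. From the low values, depth relative to the series ran from 0.719 to 1.55. Values under 0.0001 FPKM were set to 0. Groups came from the labels.

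Loci of at least 1 FPKM in 1 sample were fitted as log2(FPKM + 1) with limma 3.58.1 (R 4.3.3), with 18 group means, 35 residual degrees of freedom and a mean-variance trend; p-values were adjusted within each comparison by Benjamini-Hochberg. Genotype in controls was tested at 0 h in this fit, and over the mean of the 5 control times per replicate number. Tested on simulated data for 11146 loci, with 100 changed by 2 on the log2 scale, the WT 24 h comparison called 99% of them and the Stat6-/- 24 h comparison 95%. Of 100 changed by 1.2 they called 97% and 87%. The 24 h interaction called 92% at 2 and 79% at 1.2. Changed loci all had a mean log2(FPKM + 1) over 2, above that of Klf7 and Klf9. Noise was drawn independently for each sample, so samples that vary together were not covered. Positions and overlaps came from GENCODE M21 (mm10) and promoters from RefSeq (GRCm38.p6), read with Python 3 scripts. Alternatives were the pseudocount, filters, quantile normalization, fits of only the compared groups, a Tukey adjustment, a replicate block and leaving out each replicate. Besides the members, genes were named only from fixed lists (other Klf and Sp genes, cofactors, the ERK5 arm, ubiquitin ligases, reported targets, Stat6, Retnla and cell type markers), as called genes or up to 4 examples, and as the 3 loci most like a called member. Members and lists were chosen with earlier results of these data known.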

Additional observations from a re-analysis of the deposited data

Results flagged for a closer look

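Each of the 9 members was looked at in each group of 4 samples, 72 pairs of member and group in all. In 3 of these, 1 sample stood far from the others of its group by Dixon's criterion, where chance gives about 1 in 20. Klf4 at 3 h with IL-4 was 13.3 FPKM in WT replicate 2 and 15.6 to 15.8 FPKM in the others, still above every control. Klf7 in the 3 h controls was 1.57 FPKM in WT replicate 2 and 1.03 to 1.102 FPKM in the others. Klf13 at 1 h with IL-4 was 24.9 FPKM in WT replicate 3 and 22.8 to 23.0 FPKM in the others.

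The IL-4 change differed between WT and Stat6-/- macrophages by a tested and called interaction in 10 of 36 pairs of member and time. For Klf4 the difference was 1.69, 1.99, 1.89 and 2.14 at 1, 3, 6 and 24 h on the log2 scale. For Klf9 it was 1.26 at 6 h and 2.74 at 24 h. For Klf2 it was -1.81 at 1 h and -1.25 at 3 h, and for Klf10 -1.45 and -1.04 at the same times.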

How the results depend on the processing

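Under the alternatives, 258 of 261 recomputed counts of called members stayed within 1.5 times of the reported count, and among 2349 recomputed changes of single members no called change reversed its sign. Many of these counts were 0 in both fits, and a fall from 3 to 2 stays within that limit. Several WT changes that passed did not pass under every alternative. Their highest adjusted p was 0.163 for Klf3 and 0.374 for Klf6 at 24 h, and 0.13, 0.15 and 0.0954 for Klf7 at 3, 6 and 24 h. It was 0.152 for Klf11 at 1 h, and 0.129 and 0.25 for Klf13 at 1 and 6 h. With a pseudocount of 0.1, 4 members were called in WT at 24 h (Klf4, Klf7, Klf9 and Klf11). Calls over all 11146 tested loci rose as well there, from 947 to 1522. In WT controls at 24 h against 0 h, 1 member was called (Klf4, -1.01), while calls over all loci rose from 126 to 260. The Klf11 interaction at 24 h was called (-1.01, adjusted p = 0.0324), while calls over all loci rose from 763 to 1198. With quantile normalization, 1 was called for the response from 3 to 6 h (Klf9, 1.00), and Klf7 was called in WT at 24 h (1.00, adjusted p = 0.000835) in place of falling short of 2-fold. Leaving out 1 replicate gave 4 to 4, 2 to 3, 2 to 2 and 2 to 2 called members in WT at 1, 3, 6 and 24 h, and 3 to 3, 2 to 3, 2 to 2 and 2 to 2 for the interaction. Without Stat6-/- replicate 1, Klf7 had a called interaction at 3 h (1.17, adjusted p = 0.0253, where the alternatives ran from 0.000642 to 0.499). Where a Stat6-/- arm was left with 1 sample, that sample was taken to vary like the other groups. The Tukey adjustment called 0 members in Stat6-/- macrophages. The interactions that passed for Klf3 at 1 h, Klf6 at 6 h, and Klf11 and Klf13 at 24 h did not pass under every alternative. The same held for the response changes that passed from 1 to 3 h and from 3 to 6 h. It also held for the Klf4 response change from 1 to 24 h and for Klf10 in WT controls at 1 h. Some changes did not pass in the main fit but did under at least 1 alternative. Among interactions these were Klf3 and Klf6 at 3 and 24 h, Klf7 at 1, 3, 6 and 24 h, and Klf11 at 3 and 6 h. Among WT IL-4 changes they were Klf6 at 1 h, Klf9 and Klf13 at 3 h, and Klf3 at 6 h. Some response changes and control comparisons did so too.

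Same-numbered WT samples deviated together only in part: 13 of 15 control and IL-4 pairs had a correlation of deviations over 0.1 (0.0265 to 0.561), and 29 of 35 samples correlated best with their own number, a hint from the data. In Stat6-/- the correlation was 0.791 to 0.9 over the 4 times and 18 of 18 samples correlated best with their own number, but with 2 replicates both pairs of a time share 1 value. The numbers were not taken as pairs, since the labels do not say what they mark and not every WT pair was over 0.1. The main fit thus treats same-numbered samples as independent, although the study describes the WT time course as 4 individual animals. With the replicate block, the Klf7 interaction at 1 h was called (1.07, adjusted p = 5.92e-05, where the alternatives ran from 5.92e-05 to 0.34), and no other call changed among the members' changes.

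The tables give no read counts, so the precision of members near 1 FPKM (Klf7, Klf9) rests on the replicates alone, and Stat6-/- groups of 2 leave wide intervals. The cause of the changes with the pseudocount is its construction: a smaller one weighs low genes more. The cause of the other changes was not tested.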
